A study of Homo sapiens with 6 samples.

Results

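Transcript levels were compared directly between PC9-AMG and PC9-BrM4, a pair of sublines of the human lung adenocarcinoma line PC9, with 2 RNA libraries of each. Levels are TPM (length-corrected transcript abundance), which scale each gene by its length and each library to a fixed total. A gene was taken into the comparison where it reached 1 TPM in at least 2 of these 4 libraries, a rule that makes no use of which subline was higher. It kept 13946 of the 26485 genes in the deposited tables. The series also holds 2 libraries of PC9 itself, whose values are given beside some genes. PC9 carries a mutant EGFR, the receptor kinase on which its growth depends. PC9-BrM4 is a brain-metastatic derivative in earlier published work, which the labels do not state. The labels give no meaning for AMG. All 3 lines were grown by conventional culture, and no agent, genotype or passage number is given for any of them. The abundance tables of PC9-AMG carry EMG in their names and were assigned by the sample records. The labels do not say that the 2 libraries of a line came from separate cultures, so a p-value here measures only the spread between these libraries, which may be technical.

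Sublines of a cancer line that were selected or kept apart can differ in stable ways, through gene copy number and chromatin, and in transient ways, through growth state and stress. Several regulatory systems that recur below act through a small set of transcription factors. NF-kB dimers switch on cytokines and their own inhibitors. YAP, bound to TEAD factors, drives matricellular genes and answers to adhesion and tension. ATF4 and its partners raise amino acid supply under the integrated stress response, and SREBP2 raises the enzymes of cholesterol synthesis when sterols run low.

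The deposited coverage (reads over each base) places 3.13 and 3.84 gigabases of aligned sequence behind the PC9-BrM4 libraries and 3.93 and 4.39 behind those of PC9-AMG. Between 13455 and 13764 genes reached 1 TPM in each of the 6 libraries of the series. Log2 levels correlated over genes, which are no independent replicates, at 0.994 between the PC9-BrM4 libraries, at 0.996 between the PC9-AMG libraries and at 0.963 to 0.964 between the sublines. The median absolute log2 difference was 0.0866 and 0.0806 within a subline and 0.264 to 0.272 between them. Both sublines carried the epithelial transcripts expected of a carcinoma line. EPCAM, an epithelial surface antigen, stood at 726 and 706 TPM in PC9-BrM4 and 680.2 and 667 TPM in PC9-AMG. The lineage factor of lung epithelium, NKX2-1, was listed at 0 in both PC9-BrM4 libraries and in 1 of the PC9-AMG libraries, and lay under the filter. Of the marker lists of other cell types, 3 of 12 astrocyte genes, 5 of 19 microglia and leukocyte genes, 3 of 10 oligodendrocyte genes and 4 of 16 fibroblast and endothelial genes passed the filter. Their summed levels ranged over 37.1 to 38.5, 65.2 to 67.2, 65.7 to 67.6 and 43.4 to 47.5 TPM in PC9-BrM4 and over 31.9 to 32.5, 61.8 to 62.7, 64.6 to 65.5 and 54.8 to 56.0 TPM in PC9-AMG. In all 4 libraries 2 of the 12 astrocyte and 10 of the 19 microglia and leukocyte genes were listed at 0. So were 4 of the 10 oligodendrocyte and 7 of the 16 fibroblast and endothelial genes. S100B, AIF1, TYROBP, OLIG2, COL1A2, DCN and CLDN5 were among them. Members that passed the filter included FGFR3 of the astrocyte list (16.6 and 18.5 TPM in PC9-BrM4). COL1A1 of the fibroblast and endothelial list did so as well (14.4 and 14.8 TPM in PC9-AMG).

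The sublines differed widely, and mostly by small amounts. A gene was called where limma, fitted to log2(TPM + 1) of all 6 libraries, gave a Benjamini-Hochberg adjusted p under 0.05, and below it is said to be higher or lower in PC9-AMG only where it was called. Each pair of levels gives replicates 1 and 2 in that order, and a value set against another has PC9-BrM4 first and PC9-AMG second. Of the 13946 tested genes 7951 (57%) were called, 3961 (28.4%) higher and 3990 (28.6%) lower in PC9-AMG. Every list count below is to be read beside these shares. At least a 2-fold difference on the log2(TPM + 1) scale, which understates the difference of low genes, was reached by 543 genes higher (3.89%) and 312 genes lower (2.24%). A 4-fold difference was reached by 87 higher and 42 lower. The libraries of the sublines did not overlap for 77.8% of tested genes. The median absolute log2 difference over all tested genes was 0.26 and the median signed difference was -0.01. In the plot of difference against abundance HSP90AA1, the inducible HSP90 chaperone, stands apart among abundant genes.

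**Figure D1:**
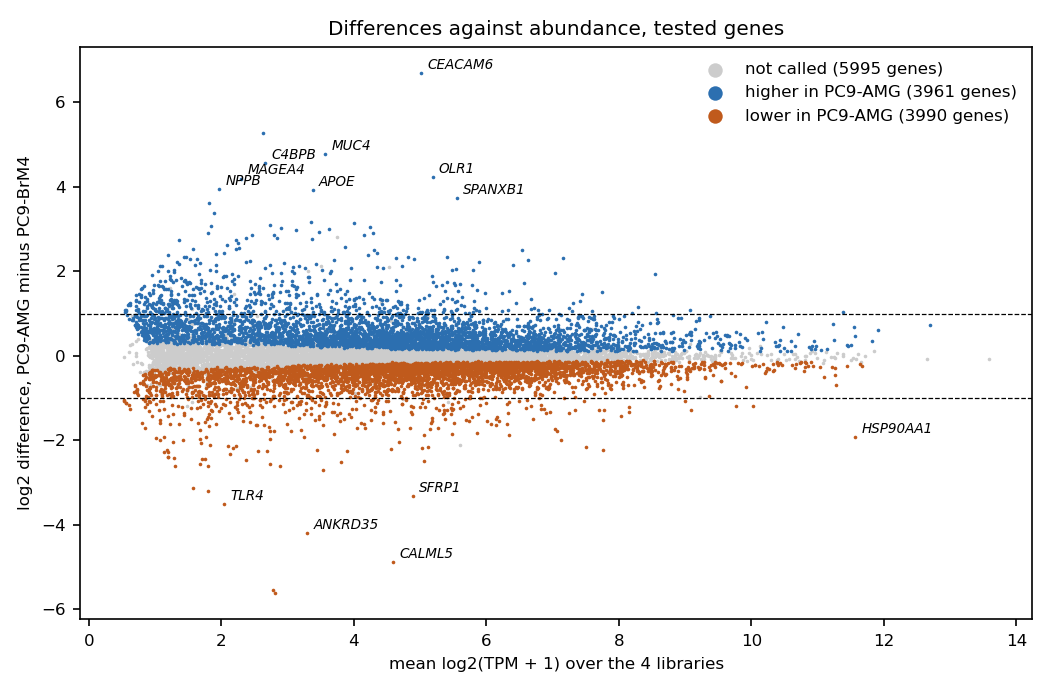
Difference between the sublines (log2, PC9-AMG minus PC9-BrM4, vertical axis) against the mean log2(TPM + 1) of the 4 libraries (horizontal axis), 1 point per tested gene. Called genes are blue (3961 higher in PC9-AMG) or orange (3990 lower), genes not called are grey, and dashed lines mark a 2-fold difference. CEACAM6 lies at the top at 6.69 and HSP90AA1 at -1.92 among the most abundant genes.

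Among gene models that overlap no other gene on their strand, cell surface and secreted products led those that were higher in PC9-AMG. CEACAM6, an adhesion glycoprotein related to carcinoembryonic antigen (chromosome 19, 41755520 to 41772208, hg38), stood at 2.16 and 2.22 TPM in PC9-BrM4 and 355 and 304 TPM in PC9-AMG. MUC4, a membrane mucin that binds ERBB2 (chromosome 3, 195746766 to 195811973), stood at 1.07 and 1.51 TPM in PC9-BrM4 and 61.9 and 60.5 TPM in PC9-AMG. OLR1, a scavenger receptor for oxidised lipoproteins (chromosome 12, 10158300 to 10172191), stood at 7.9 and 6.95 TPM against 157 and 157 TPM. Both PC9-AMG libraries lay far above both PC9-BrM4 libraries for each of these genes, with log2 differences of 6.69 ± 0.0718, 4.77 ± 0.102 and 4.23 ± 0.0741 (SE, n = 2 libraries per subline). The parental PC9 libraries did not side with the same subline throughout. They held 602 and 589.8 TPM of CEACAM6, above both sublines, 10.1 and 10.6 TPM of MUC4, between them, and 4.83 and 4.94 TPM of OLR1, below both.

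Further leading genes encode a lipid carrier, hormones and a complement regulator. APOE, the apolipoprotein that carries cholesterol between cells, stood at 1.83 and 1.53 TPM in PC9-BrM4 and 38.7 and 40.1 TPM in PC9-AMG (log2 difference 3.92 ± 0.0993). C4BPB, a chain of the complement inhibitor C4b-binding protein, was listed at 0 in 1 PC9-BrM4 library and at 0.704 TPM in the other, against 26.6 and 33.1 TPM in PC9-AMG (4.55 ± 0.244). NPPB, which encodes a natriuretic peptide, was listed at 0 in both PC9-BrM4 libraries and at 12.9 and 16.2 TPM in PC9-AMG. PSG5, a pregnancy-specific glycoprotein of the same wider family as CEACAM6, stood at 0.332 and 0 TPM against 10.6 and 11.3 TPM, and has close copies nearby that make its value uncertain. TMEM52B, a membrane protein gene that neighbours OLR1 on chromosome 12, stood at 1.27 and 1.28 TPM against 18.4 and 18.5 TPM (3.09 ± 0.094). The gene bodies of TMEM52B and OLR1 overlap on opposite strands (chromosome 12, 10170599 to 10191804 on the forward strand), and the strand setting of the counting is not given, so their values may not be independent. The other genes among the 12 largest were the cancer-testis genes MAGEA4, SPANXB1 and XAGE2 and the cytokine IL11, described with their groups. Over the 12, limma adjusted p ran from 5.27e-09 (CEACAM6) to 2.03e-05 (XAGE2).

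**Figure D2:**
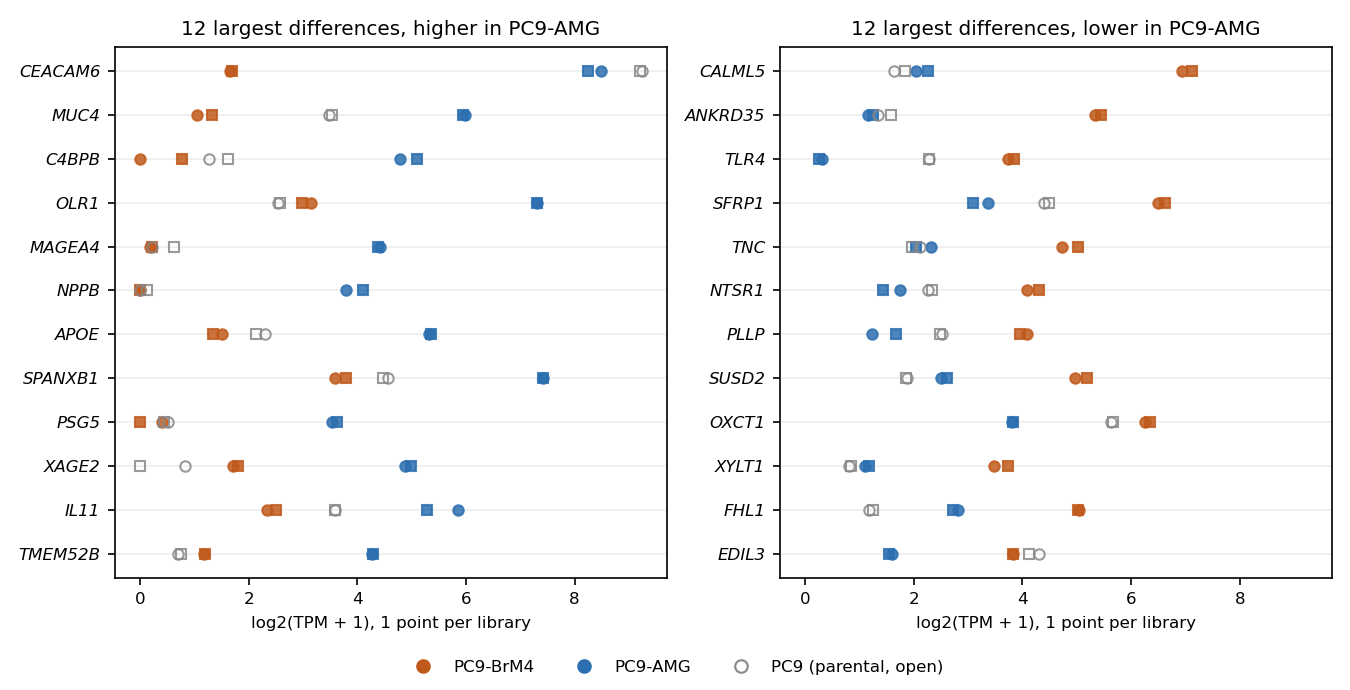
Levels of the 12 genes with the largest differences in each direction, overlapping gene models left out (log2(TPM + 1), horizontal axis), with 1 point per library: PC9-BrM4 orange, PC9-AMG blue, PC9 grey and open, circles and squares for replicates 1 and 2. For CEACAM6 the PC9-BrM4 libraries sit at 2.16 and 2.22 TPM and the PC9-AMG libraries at 355 and 304 TPM, and no gene in either panel has overlapping sublines.

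Among models that overlap no other gene on their strand, the genes most reduced in PC9-AMG included an epidermal gene, receptor genes and matrix genes. CALML5, a calcium-binding protein of the upper epidermis (chromosome 10, 5498695 to 5499570), stood at 122 and 138 TPM in PC9-BrM4 and 3.13 and 3.79 TPM in PC9-AMG (log2 difference -4.87 ± 0.111). ANKRD35, an ankyrin repeat protein, stood at 39.3 and 42.4 TPM against 1.24 and 1.36 TPM (-4.18 ± 0.108). TLR4, the receptor for bacterial lipopolysaccharide (chromosome 9, 117704175 to 117717491), stood at 12.4 and 13.4 TPM against 0.237 and 0.19 TPM (-3.52 ± 0.0966). The libraries of each subline lay close together and apart from the other subline for all 3 genes. PC9 held 2.11 and 2.57 TPM of CALML5 and 1.54 and 1.99 TPM of ANKRD35, near the PC9-AMG level, and 3.88 and 3.87 TPM of TLR4, between the sublines.

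SFRP1, a secreted Wnt antagonist, stood at 88.9 and 97.2 TPM in PC9-BrM4 and 9.33 and 7.54 TPM in PC9-AMG (-3.32 ± 0.0974), and TNC, the matrix glycoprotein tenascin C, at 25.6 and 31.4 TPM against 3.998 and 3.12 TPM (-2.69 ± 0.132). NTSR1, the neurotensin receptor, stood at 15.9 and 18.8 TPM against 2.34 and 1.69 TPM (-2.61 ± 0.129). OXCT1, the mitochondrial enzyme that activates ketone bodies for oxidation, stood at 75.1 and 80.4 TPM against 12.9 and 13.2 TPM (-2.49 ± 0.0571). OXCT1 lies on chromosome 5 between 40 and 50 Mb, a window whose 26 tested genes had a median log2 difference of -0.58. PLLP, a membrane protein of myelin, XYLT1, which starts proteoglycan chains, SUSD2, FHL1 and the integrin ligand EDIL3 completed the 12, with log2 differences of -2.57, -2.47, -2.51, -2.26 and -2.25. FHL1, a LIM-domain protein of muscle, and XYLT1 were low in PC9 (1.27 and 1.38 TPM and 0.752 and 0.805 TPM), while EDIL3 was at 18.7 and 16.5 TPM there, above PC9-BrM4 at 13.2 and 13.1 TPM. Limma adjusted p over these 12 genes ran from 1.51e-07 (CALML5 and OXCT1) to 6.04e-06 (PLLP).

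Basal keratin KRT5, a gene chosen after its values were seen, was lower as well. It stood at 460.4 and 480.2 TPM in PC9-BrM4 and 96.3 and 102 TPM in PC9-AMG (-2.23 ± 0.0465, limma adjusted p = 1.19e-07). PC9 held 98.7 and 97.7 TPM of KRT5, close to PC9-AMG. The hemidesmosomal collagen COL17A1 and the claudin CLDN1, given below, were higher. KRT8, a keratin of simple epithelium, was higher in PC9-AMG, at 4615 and 4870.4 TPM against 3085 and 3119 TPM in PC9-BrM4. KRT5 and KRT8 lie in the same window of chromosome 12, from 50 to 60 Mb, whose tested genes had a median of 0.45.

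Genes of the NF-kB system were more often higher than lower in PC9-AMG. Of 30 tested members 18 were higher, 6 lower and 6 not called, so that 80% were called against 57% of all tested genes, with a median log2 difference of 0.50 against -0.01 (0.32 over 40 members with no filter). IL11, an interleukin 6 family cytokine (chromosome 19, 55364382 to 55370463), stood at 4.04 and 4.68 TPM in PC9-BrM4 and 57.2 and 37.9 TPM in PC9-AMG (log2 difference 3.15 ± 0.167). RELB, the NF-kB subunit of the alternative pathway, stood at 5.12 and 5.42 TPM against 25.1 and 23.6 TPM (2.02 ± 0.123). IL6, a pro-inflammatory cytokine (chromosome 7, 22727147 to 22732002), stood at 2.17 and 2.15 TPM against 11.6 and 7.41 TPM (1.70 ± 0.18). All 3 were higher in both PC9-AMG libraries, with PC9-AMG replicate 1 above replicate 2 by a wide gap for IL11 and IL6. RELB and IL11 lie on chromosome 19 between 30 and 60 Mb, a stretch of 543 tested genes with a median of 0.43. The 2 Mb bins that hold them had medians of 0.46 (RELB) and 0.63 (IL11). With window medians subtracted the list had 21 members higher and 6 lower (median 0.41). The part of position in the differences of RELB and IL11 was not tested. The members that went the other way were large as well. TLR4, given above, and TNFAIP2, a gene induced by tumor necrosis factor, led them, and TNFAIP2 stood at 122 and 126 TPM against 42.2 and 41.8 TPM (-1.53 ± 0.0478). C3, the central complement component, stood at 21.9 and 25.4 TPM against 8.51 and 8.37 TPM (-1.38 ± 0.0803). TNFAIP2 lies on chromosome 14 between 102 and 104 Mb, where 21 of 25 tested genes were lower and none higher in PC9-AMG (median -1.29). The subunit NFKB1, by contrast with RELB and with NFKB2, was not called, at 20.1 and 21.9 TPM against 24.2 and 23.6 TPM.

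The promoters of IL6 and of the apoptosis inhibitor BIRC3 are shown because they hold an NF-kB motif, GGG and TTTCC with any 2 bases between them, which 1.73% of 27305 promoters held in the 250 bases before the start in RefSeq (GRCh38.p14, searched on both strands). The motif is in capitals and the bases inside the deposited gene model are left out. IL6 is shown from chr7:22726950-22727146 on the forward strand and BIRC3 from chr11:102317234-102317449 on the forward strand, where the capitals are the reverse complement of the motif. BIRC3 stood at 5.37 and 5.49 TPM in PC9-BrM4 and 15.3 and 12.2 TPM in PC9-AMG (1.19 ± 0.11). IL6 and BIRC3 were chosen among list members higher in PC9-AMG. The motif was also held by NFKBIA, which was higher, and by IL32 and TNFAIP3, which were lower. NFKB1, REL and NFKBIZ held it and were not called. A match describes these letters and says nothing of binding. Only 76.8% of tested genes had a RefSeq promoter by symbol, too few for a comparison of motif shares between gene groups.
IL6: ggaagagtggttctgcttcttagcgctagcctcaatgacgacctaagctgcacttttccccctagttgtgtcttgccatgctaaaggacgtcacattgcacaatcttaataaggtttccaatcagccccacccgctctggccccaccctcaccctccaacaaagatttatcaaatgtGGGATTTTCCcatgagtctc
BIRC3: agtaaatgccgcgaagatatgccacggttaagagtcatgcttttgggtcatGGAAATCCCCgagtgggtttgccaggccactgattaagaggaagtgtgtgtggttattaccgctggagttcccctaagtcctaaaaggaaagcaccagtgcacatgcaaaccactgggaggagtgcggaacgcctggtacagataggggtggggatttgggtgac

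Targets of YAP and TEAD differed in both directions. Of 30 tested members 15 were higher, 7 lower and 8 not called, with a median of 0.16 that was 0.093 without PC9-BrM4 replicate 1 and 0.089 with no filter. Called members made up 73.3%, against 57% of all tested genes. CTGF, a matricellular protein and textbook YAP target (chromosome 6, 131948177 to 131951378), stood at 22.1 and 21.9 TPM in PC9-BrM4 and 96.5 and 92.3 TPM in PC9-AMG (log2 difference 2.05 ± 0.0571). ANKRD1, a stretch-responsive nuclear protein, stood at 17.8 and 17.9 TPM against 67.7 and 70.3 TPM (1.89 ± 0.0554). NUAK2, an AMPK-related kinase that feeds back on YAP, stood at 6.01 and 6.63 TPM against 18.8 and 19.6 TPM (1.47 ± 0.0907). The libraries of 1 subline lay close together for these genes while the sublines stood far apart. The matricellular protein THBS1, also in the list and chosen after its values were seen, was lower, at 266 and 282 TPM against 218 and 212 TPM (-0.35 ± 0.0455). The lower members with the largest differences were the ectonucleotidase NT5E (119.9 and 128 TPM against 90.7 and 74.5 TPM, -0.58), AMOTL1 (-0.39) and FJX1 (-0.38). The coactivator YAP1 itself was lower in PC9-AMG, at 87.6 and 92.4 TPM against 71.2 and 66.6 TPM (-0.38 ± 0.0581), and its partner TEAD1 was not called, at 48.8 and 55.5 TPM against 53.7 and 46.4 TPM. AMOTL1 lost its call when the median of its 10 Mb window was subtracted, with a log2 difference of -0.20.

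The promoters of CTGF (CCN2 in RefSeq) and NUAK2 are printed because both hold GGAATG, the core of the TEAD motif, searched on both strands and found in 11.9% of the 27305 promoters. CTGF is shown from chr6:131951379-131951622 and NUAK2 from chr1:205321792-205321995, both on the reverse strand and read 5′ to 3′. CTGF carried 3 matches, at 163, 98 and 89 bases before the deposited start. NUAK2 carried 1 in reverse complement, at 151 bases. Both genes were chosen among list members higher in PC9-AMG. The motif was also held by ANKRD1 and TGFB2, which were higher, by THBS1 and YAP1, which were lower, and by PTPN14, which was not called.
CTGF: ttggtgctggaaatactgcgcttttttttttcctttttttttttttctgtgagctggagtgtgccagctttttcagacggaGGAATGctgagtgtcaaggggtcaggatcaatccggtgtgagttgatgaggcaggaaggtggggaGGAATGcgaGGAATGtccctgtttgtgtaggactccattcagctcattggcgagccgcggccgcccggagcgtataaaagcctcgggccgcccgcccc
NUAK2: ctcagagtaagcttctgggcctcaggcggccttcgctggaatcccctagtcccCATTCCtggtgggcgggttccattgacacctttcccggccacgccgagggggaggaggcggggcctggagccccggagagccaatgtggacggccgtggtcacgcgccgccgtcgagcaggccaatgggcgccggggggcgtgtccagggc

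TGF-beta superfamily genes differed in both directions. Of 37 tested members 18 were higher and 9 lower (median 0.10, and 0.19 or 0.22 without PC9-BrM4 replicate 1 or 2). Of the 37 tested, 10 were called and at least 2-fold higher, against 3.89% of all tested genes. The ligand subunit INHBA, which forms activin A (chromosome 7, 41689003 to 41703108), stood at 5.52 and 5.8 TPM in PC9-BrM4 and 50.7 and 43.4 TPM in PC9-AMG (log2 difference 2.85 ± 0.0855). GDF15, a stress-induced ligand of the same superfamily, stood at 2.96 and 2.93 TPM against 28.8 and 23.5 TPM (2.77 ± 0.115). PC9 libraries lay between the sublines for both, at 23.5 and 24.6 TPM for INHBA and 5.92 and 6.86 TPM for GDF15. Among the lower members, LTBP2, a latency-binding matrix protein, stood at 109 and 129 TPM against 42.4 and 39.9 TPM (-1.50 ± 0.0771) and the ligand BMP4 at 68.7 and 70.3 TPM against 42.8 and 48.5 TPM (-0.60 ± 0.0632). LTBP2 lies on chromosome 14 between 70 and 80 Mb, where the median of 69 tested genes was -0.76. The receptor TGFBR1 was higher (0.81) and TGFBR2 lower (-0.32), and the inhibitory SMAD7 was not called (6.92 and 6.62 TPM against 6.36 and 6.34 TPM).

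Immediate early genes, which are transcribed within minutes of a stimulus, were higher in PC9-AMG for most members. Of 29 tested 24 were higher, 2 lower and 3 not called, so that 89.7% were called, with a median of 0.53. DUSP1, a phosphatase that switches off MAP kinases (chromosome 5, 172768090 to 172771200), stood at 6.12 and 6.17 TPM in PC9-BrM4 and 59.9 and 46.3 TPM in PC9-AMG (log2 difference 2.91 ± 0.115). NR4A1, an orphan nuclear receptor, stood at 1.56 and 1.04 TPM against 8.2 and 7.28 TPM (1.93 ± 0.146), and the AP-1 subunit JUN at 50.7 and 60.9 TPM against 142 and 126 TPM (1.25 ± 0.0891). PC9 held 8.87 and 9.34 TPM of DUSP1 and 62.1 and 62.5 TPM of JUN, near PC9-BrM4. The lower members were FOS, the AP-1 partner of JUN, at 6.89 and 6.61 TPM against 4.66 and 4.4 TPM (-0.49 ± 0.0898) and KLF10 (-0.26). FOS sits in the reduced window of chromosome 14 (70 to 80 Mb), and its difference turned to 0.28 with the window median subtracted. KLF10 was not called without PC9-AMG replicate 2 (log2 difference -0.16) or without PC9-BrM4 replicate 1 (-0.28) or replicate 2 (-0.24).

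DUSP1 is shown with its promoter from chr5:172771201-172771445 (reverse strand), which holds the cAMP response element TGACGTCA, a palindrome, 120 bases before the deposited start. The motif was present in 1.77% of the 27305 promoters. DUSP1 was chosen among list members higher in PC9-AMG. The motif was also held by JUND and MAFF, which were higher. The AP-1 site TGANTCA was searched as well and was held by 0 of 22 list members with a promoter. Other motifs not shown were held by 1 of 23 (sterol), 4 of 26 (antioxidant) and 18 of 32 (interferon) list members with a promoter.
DUSP1: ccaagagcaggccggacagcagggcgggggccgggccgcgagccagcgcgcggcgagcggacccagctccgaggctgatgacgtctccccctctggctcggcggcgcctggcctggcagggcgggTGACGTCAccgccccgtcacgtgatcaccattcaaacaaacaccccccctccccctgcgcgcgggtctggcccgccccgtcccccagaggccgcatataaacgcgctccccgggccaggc

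Genes of the integrated stress response, in which ATF4 raises amino acid transport, redox defence and its own feedback, were mostly higher in PC9-AMG. Of 43 tested members 29 were higher, 4 lower and 10 not called (median 0.35). Called members made up 76.7%, against 57% of all tested genes. ATF3, a stress transcription factor (chromosome 1, 212565334 to 212620777), stood at 5.18 and 4.78 TPM in PC9-BrM4 and 37.9 and 31.4 TPM in PC9-AMG (log2 difference 2.57 ± 0.1004). PPP1R15A, which brings back translation by dephosphorylating eIF2, stood at 26 and 27.3 TPM against 121 and 103 TPM (2.03 ± 0.0814). CHAC1, which degrades glutathione, stood at 8.995 and 8.09 TPM against 37 and 28.2 TPM (1.81 ± 0.122). For each, PC9-AMG replicate 1 was the higher of the PC9-AMG libraries and both exceeded all PC9-BrM4 and PC9 libraries. ATF4 itself was higher by less, at 467 and 406 TPM against 625 and 598 TPM (0.49 ± 0.0649). The serine synthesis enzymes PHGDH and PSPH were lower (-0.32 and -0.36), as was CTH, which makes cysteine (-0.28), and asparagine synthetase ASNS was not called at 188 and 177 TPM against 183 and 152 TPM. The call of CTH was lost in 6 of the 18 other settings, and without PC9-AMG replicate 1 the list had 24 higher and 7 lower members (median 0.25). PC9-AMG replicate 1 exceeded replicate 2 for 40 of the 43 members, against 60.9% of all tested genes, with a median log2 difference of 0.18 between these replicates. 

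ATF3 and CHAC1 are printed with their promoters for the composite C/EBP-ATF motif TGATGNAA, which 3.19% of the 27305 promoters held. ATF3 is from chr1:212565157-212565333 and CHAC1 from chr15:40953221-40953437, both on the forward strand. The match in CHAC1 is in reverse complement. Both genes were chosen among list members higher in PC9-AMG. The motif was also held by AARS, which was lower, and by ASNS, which was not called.
ATF3: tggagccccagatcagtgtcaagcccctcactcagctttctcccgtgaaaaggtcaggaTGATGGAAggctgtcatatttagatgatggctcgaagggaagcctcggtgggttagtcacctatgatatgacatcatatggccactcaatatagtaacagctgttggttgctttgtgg
CHAC1: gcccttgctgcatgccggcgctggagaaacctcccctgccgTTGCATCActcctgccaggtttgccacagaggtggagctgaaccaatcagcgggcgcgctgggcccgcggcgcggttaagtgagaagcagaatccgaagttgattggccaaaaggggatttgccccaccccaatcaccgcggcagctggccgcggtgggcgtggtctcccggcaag

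Chaperones of the endoplasmic reticulum moved in the same direction by smaller amounts. Of 27 tested members 19 were higher, none lower and 8 not called (median 0.31). Called members made up 70.4%, against 57% of all tested genes. At an unadjusted limma p under 0.05 the number lower was 0. PC9-AMG replicate 1 exceeded replicate 2 for 26 of the 27, and without it 15 were higher and 1 lower (median 0.24). DNAJB9, a cochaperone of the lumen, stood at 26.8 and 24.5 TPM in PC9-BrM4 and 57.7 and 44.8 TPM in PC9-AMG (log2 difference 0.96 ± 0.109). The coat protein SEC24D (0.93) and the transcription factor CREB3L2 (0.73) followed. The abundant lumenal chaperone HSPA5 stood at 696 and 688 TPM against 1022 and 896 TPM (0.47 ± 0.06003), and HSP90B1 was not called, at 804 and 815 TPM against 880.5 and 806 TPM.

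Targets of p53 and other genes of growth arrest were higher in PC9-AMG for 22 of 31 tested members, with 0 lower and 9 not called (median 0.57), and 9 were at least 2-fold higher. Called members made up 71.0%, against 57% of all tested genes, of which 3.89% were at least 2-fold higher. At an unadjusted limma p under 0.05 the number lower was 0. GADD45A, a growth arrest protein (chromosome 1, 67685177 to 67688338), stood at 43.2 and 45.5 TPM in PC9-BrM4 and 225 and 207 TPM in PC9-AMG (log2 difference 2.26 ± 0.0558). CDKN1A, the cyclin-dependent kinase inhibitor p21, stood at 18.7 and 19.5 TPM against 71 and 62.1 TPM (1.75 ± 0.0825). Both PC9-AMG libraries lay far above both PC9-BrM4 libraries for these genes. PC9 held 59.2 and 57.4 TPM and 26.9 and 30.2 TPM, nearer PC9-BrM4. MDM2, the p53 antagonist and itself a p53 target, was higher by a smaller amount (25.1 and 23.4 TPM against 39 and 34.2 TPM, 0.57 ± 0.0766), while the p53 targets ZMAT3 and RRM2B were not called (0.00 and -0.04). BBC3, the death effector PUMA, was higher (1.43), and its model overlaps a microRNA gene on the same strand.

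DNA replication genes were mostly lower in PC9-AMG. Of 43 tested members 30 were lower in PC9-AMG, 2 higher and 11 not called (median -0.27), where 28.6% of all tested genes were lower. PCNA, the sliding clamp of DNA polymerases (chromosome 20, 5114953 to 5126622), stood at 753 and 726 TPM in PC9-BrM4 and 342 and 362 TPM in PC9-AMG (log2 difference -1.07 ± 0.0454). GINS2, a subunit of the replicative helicase, stood at 119 and 113 TPM against 49.2 and 55.6 TPM (-1.14 ± 0.0637), and the transcription factor E2F2 at 12.6 and 13.9 TPM against 6.06 and 6.24 TPM (-0.99 ± 0.0848). PC9 held 703 and 729.9 TPM of PCNA, close to PC9-BrM4. The 10 Mb windows of PCNA (chromosome 20) and GINS2 (chromosome 16) had medians of -0.32 and -0.34. The 2 Mb bin that holds PCNA, from 4 to 6 Mb, had a median of -0.58, with 8 of 11 tested genes lower and 1 higher. With window medians subtracted 26 members of the list were lower and 2 higher (median -0.31). The part of position in the differences of PCNA and GINS2 was not tested. All 6 subunits of the MCM helicase, MCM2 to MCM7, were lower, from -0.86 for MCM6 to -0.14 for MCM7. The higher members were the salvage kinase TK1 (0.49) and the polymerase subunit POLD1 (0.24). Neither kept its call with the window median removed, when TK1 was at 0.10 and POLD1 at -0.28, and POLD1 was not called without PC9-AMG replicate 2 or PC9-BrM4 replicate 1 either. The 2 members called higher with window medians removed were other genes.

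Of 40 tested mitotic genes 19 were higher in PC9-AMG, 5 lower and 16 not called (median 0.13), a called share of 60% that is close to the 57% of all tested genes. KIF2C, a microtubule depolymerase, stood at 118 and 119 TPM in PC9-BrM4 and 199 and 199.6 TPM in PC9-AMG (log2 difference 0.75 ± 0.0445), CKS2 at 347 and 322 TPM against 494 and 498 TPM (0.57), and the kinesin CENPE at 15.3 and 17.1 TPM against 25.2 and 21.7 TPM (0.51). HMMR, a spindle-associated hyaluronan receptor, was lower (-0.45). The proliferation marker MKI67 was not called, at 81.5 and 107 TPM against 105 and 101 TPM. The number lower, 5, was 4 without PC9-AMG replicate 1, 1 without PC9-AMG replicate 2 and 2 without either PC9-BrM4 library.

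Cholesterol synthesis was the metabolic list with the largest share of called members, 90% of 30, with 24 higher in PC9-AMG, 3 lower and 3 not called (median 0.67). STARD4, which carries cholesterol between membranes (chromosome 5, 111496035 to 111512597), stood at 9.79 and 9.24 TPM in PC9-BrM4 and 49.2 and 38.8 TPM in PC9-AMG (log2 difference 2.09 ± 0.104). SC5D, a late enzyme of sterol synthesis, stood at 16.1 and 16 TPM against 42.1 and 35.8 TPM (1.22 ± 0.0814). TM7SF2, a sterol reductase whose model overlaps VPS51 and is therefore uncertain, stood at 21 and 19.95 TPM against 66.8 and 65.5 TPM (1.64). The lower members included ABCA1, which exports cholesterol and is induced when sterols are plentiful, at 6.27 and 6.59 TPM against 3.58 and 2.85 TPM (-0.82 ± 0.108), the kinase PMVK (-0.79) and the ubiquitin ligase MYLIP (-0.22). MYLIP was not called without PC9-AMG replicate 2 (-0.20) or PC9-BrM4 replicate 2 (-0.21). SREBF2, the transcription factor of the pathway, was higher (0.42 ± 0.0571) and SREBF1 was not called (-0.04).

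Fatty acid synthesis genes were higher for 15 of 22 tested members, with 0 lower and 7 not called (median 0.35). Called members made up 68.2%, against 57% of all tested genes. At an unadjusted limma p under 0.05 the number lower was 0. FADS2, a desaturase of polyunsaturated fatty acids, stood at 365 and 358 TPM in PC9-BrM4 and 673 and 665 TPM in PC9-AMG (log2 difference 0.89 ± 0.0404). The acyl-CoA synthetase ACSL5 and the acetyl-CoA synthetase ACSS2 were higher by 0.77 and 0.72. The fatty acid synthase FASN stood at 397 and 497 TPM against 565 and 529 TPM (0.30 ± 0.0927, limma adjusted p = 0.0252), with a wide gap between the PC9-BrM4 libraries.

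**Figure D3:**
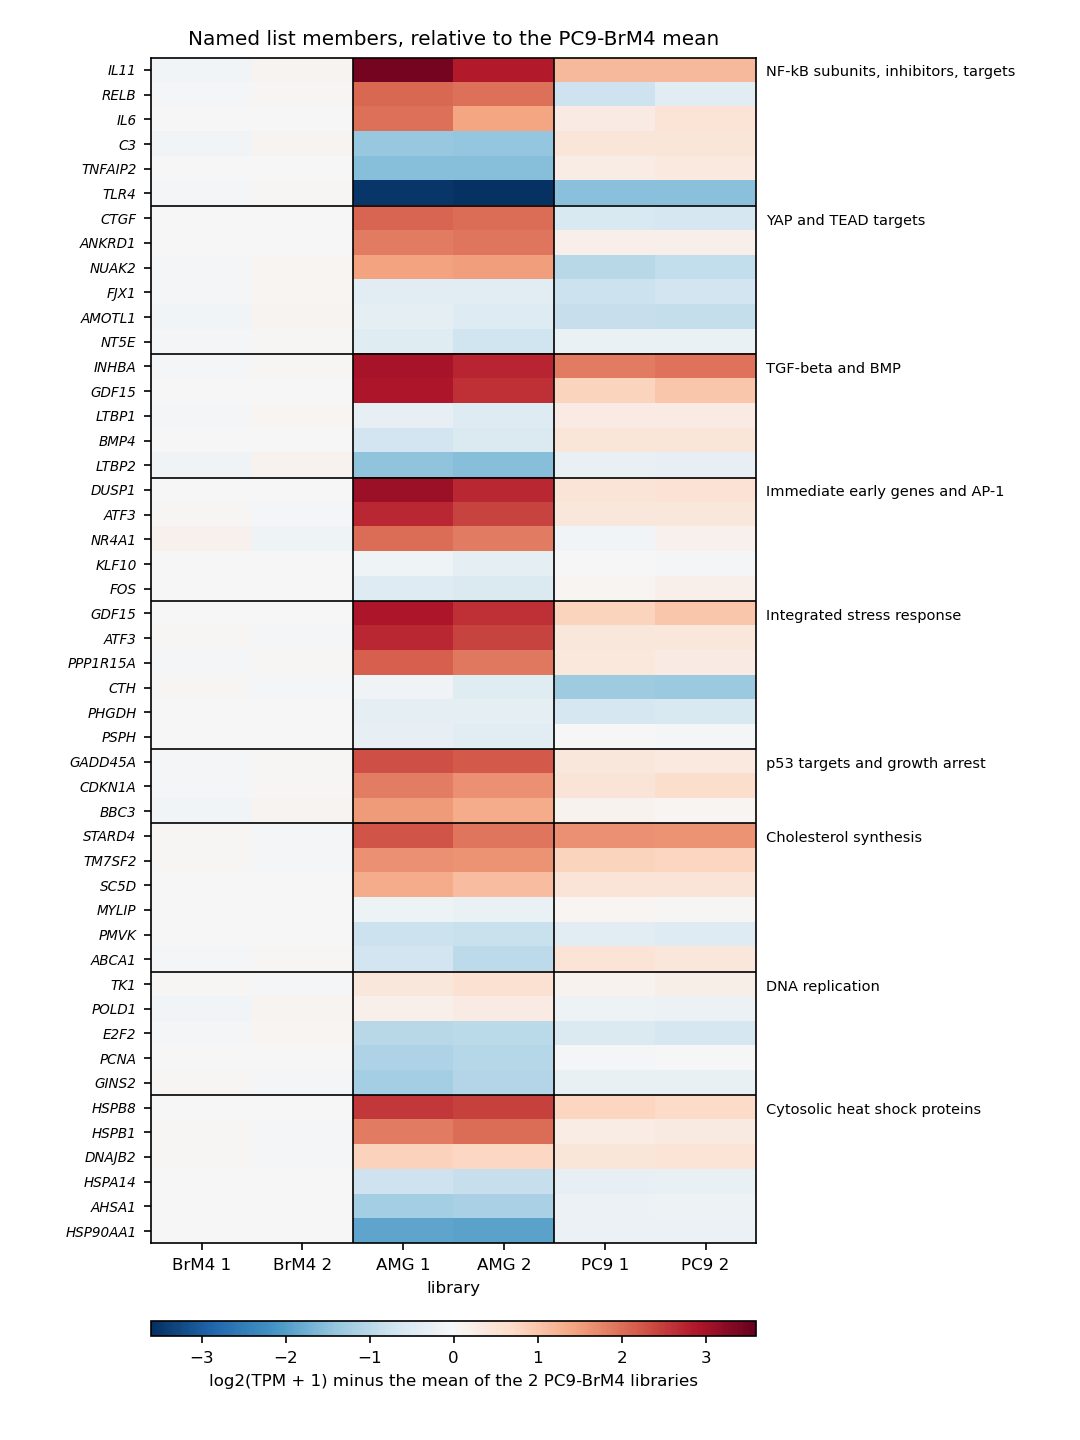
Levels of named members of 9 gene lists in each library, as log2(TPM + 1) minus the mean of the 2 PC9-BrM4 libraries (colour, red above and blue below), with 1 column per library and 1 row per gene, and lists separated by lines. The PC9-AMG columns are red for IL11, CTGF, INHBA, DUSP1, ATF3, GADD45A and STARD4 and blue for TLR4, PCNA and HSP90AA1, and both replicates of a line have like colours.

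Antioxidant genes driven by NRF2 differed in both directions, with 16 of 38 tested members higher, 8 lower and 14 not called (median 0.13, and 0.08 without PC9-AMG replicate 1 or PC9-BrM4 replicate 1). The called share was 63.2%, against 57% of all tested genes. HMOX1, which breaks down heme, stood at 25.1 and 25.6 TPM in PC9-BrM4 and 68.2 and 67.2 TPM in PC9-AMG (log2 difference 1.38 ± 0.0666). The aldo-keto reductase AKR1B10 stood at 110.1 and 106 TPM against 261 and 277 TPM (1.31 ± 0.0535). AKR1C3, a reductase of steroids and prostaglandins, stood at 1616 and 1522 TPM against 665 and 706 TPM (-1.19 ± 0.049), and the quinone reductase NQO1 at 625 and 637 TPM against 428 and 431 TPM (-0.55 ± 0.0365). AKR1C3 and NQO1 lie in windows of chromosomes 10 and 16 with medians of -0.47 and -0.43. AKR1B10 and AKR1B15, and the AKR1C genes, are close copies, so reads may be split between them and their values are uncertain.

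Glycolytic and hypoxia genes also divided, 17 of 40 higher and 10 lower (median 0.11). Their called share was 67.5%, against 57% of all tested genes. ALDOC, the brain-type aldolase, stood at 3.38 and 3.32 TPM in PC9-BrM4 and 34.8 and 33.4 TPM in PC9-AMG (log2 difference 3.01 ± 0.0708), and P4HA2, a collagen prolyl hydroxylase, at 21.9 and 25.5 TPM against 51.6 and 50.2 TPM (1.08 ± 0.0746). The abundant muscle-type ALDOA was lower (-0.28), as were lactate dehydrogenase LDHA (2632 and 2586 TPM against 1878 and 1805 TPM, -0.50 ± 0.0404) and the hypoxia factor HIF1A (-0.44). GAPDH was not called, at 12817 and 12446 TPM against 11609 and 12226 TPM.

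Among enzymes of tryptophan, ketone and amine breakdown 8 of 21 were higher and 9 lower (median -0.05). KYNU, which cleaves kynurenine, stood at 5.29 and 6.01 TPM in PC9-BrM4 and 57.3 and 50.3 TPM in PC9-AMG (log2 difference 3.04 ± 0.0851), and AOC1, the diamine oxidase, at 0.344 and 0.544 TPM against 5.54 and 5.34 TPM (2.16 ± 0.104). PC9 held 68.9 and 64.7 and 13.3 and 14 TPM, above both sublines. OXCT1, given above, and CYP1B1, an oxidase induced by the aryl hydrocarbon receptor, were lower (55.2 and 64.5 TPM against 30.01 and 22.8 TPM, -1.16 ± 0.122), while AHRR, the repressor of that receptor, was higher (1.26). The number lower fell to 5 without PC9-AMG replicate 2, and the median was 0.01 without PC9-BrM4 replicate 1.

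Epithelial junction and keratin genes were higher in PC9-AMG for 21 of 39 tested members, lower for 9 and not called for 9 (median 0.26). Their called share was 76.9%, against 57% of all tested genes. CLDN1, a tight junction claudin (chromosome 3, 190305701 to 190322446), stood at 30.8 and 28.8 TPM in PC9-BrM4 and 110.2 and 86.2 TPM in PC9-AMG (log2 difference 1.68 ± 0.103), and CLDN4 at 322 and 323 TPM against 646 and 614 TPM (0.96 ± 0.0408). The hair keratin KRT81 (8.64 and 8.86 TPM against 1.32 and 1.15 TPM, -2.13), the desmosomal plakophilin PKP3 (-1.09) and the epithelial repressor OVOL2 (-0.999) were lower. CDH1, the epithelial cadherin, was not called, at 87 and 94.8 TPM against 98.8 and 93.8 TPM (limma adjusted p = 0.241), although its log2 difference rose to 0.51 and was called with the window median removed.

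Mesenchymal markers differed in both directions, with 9 of 21 tested members higher and 7 lower (median 0.20, and 0.05 without PC9-BrM4 replicate 1). Their called share was 76.2%, against 57% of all tested genes. COL1A1, a fibrillar collagen chain, stood at 3.68 and 4.43 TPM in PC9-BrM4 and 14.4 and 14.8 TPM in PC9-AMG (1.63 ± 0.0982), and CDH2, the neural cadherin, at 2.6 and 2.59 TPM against 6.37 and 6.1 TPM (1.01 ± 0.0898). VIM, the mesenchymal filament vimentin, stood at 27.3 and 26.1 TPM against 13.3 and 11.6 TPM (-1.04 ± 0.0772), and TPM2, a tropomyosin, at 77.3 and 68 TPM against 14.7 and 16.3 TPM (-2.16 ± 0.094). VIM lies on chromosome 10 between 10 and 20 Mb, a window with a median of -0.63 over 38 tested genes. The regulators ZEB1 and ZEB2 lay under the filter.

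Of 35 lineage genes of the airway and foregut 11 passed the filter, with 7 higher and 2 lower (median 0.26). With no filter 8 of 26 were higher and 2 lower (median 0.045), and without PC9-AMG replicate 1, which exceeded replicate 2 for 10 of the 11, 5 were higher and 1 lower (median 0.16). AGR2, a disulfide isomerase of secretory epithelium (chromosome 7, 16792640 to 16805114), stood at 27.8 and 25.2 TPM in PC9-BrM4 and 143 and 111 TPM in PC9-AMG (log2 difference 2.21 ± 0.107). FOXA1, a pioneer factor of foregut epithelium, stood at 2.5 and 3.07 TPM against 14 and 13.6 TPM (1.97 ± 0.0925), and GATA6 at 1.82 and 2.06 TPM against 9.75 and 8.31 TPM (1.77 ± 0.105). TFF1, a trefoil peptide of mucous cells chosen after its values were seen, was listed at 0 in both PC9-BrM4 libraries and at 4.38 and 4.11 TPM in PC9-AMG. PC9 held 123 and 123, 20.3 and 20.3 and 5.98 and 6.13 TPM of AGR2, FOXA1 and GATA6. Surfactant genes SFTPA1 and SFTPC were listed at 0 in all 4 libraries.

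The carcinoembryonic antigen, mucin and S100 list, which holds CEACAM6, MUC4 and CALML5, had 13 of 21 tested members higher and 4 lower (median 0.63, and 0.39 over 25 members with no filter). CEACAM5, CEACAM1 and CEACAM19 were higher along with CEACAM6, and CEACAM5 stood at 0 and 0.0426 TPM against 3.76 and 3.24 TPM. MUC20, which lies beside MUC4 on chromosome 3, stood at 11.2 and 11.8 TPM against 60.7 and 63.6 TPM (2.33 ± 0.0597). MUC1 and MUC16 were not called. The lower members were led by CALML5 (-4.87), followed by S100A4 and S100A16 (-0.40 and -0.27).

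EGFR, the mutated driver, was not called between the sublines, at 224 and 303 TPM in PC9-BrM4 and 234 and 185 TPM in PC9-AMG (log2 difference -0.32 ± 0.149, limma adjusted p = 0.102). The libraries overlapped, and without PC9-BrM4 replicate 1 the difference was -0.54 and called. Of the 29 tested ERBB receptors, ligands and ERK feedback genes 14 were higher and 7 lower (median 0.21). Called members made up 72.4%, against 57% of all tested genes. The ligands AREG and HBEGF were higher, AREG at 30.1 and 27.1 TPM against 83.1 and 60.4 TPM (1.28 ± 0.131) and HBEGF at 32.2 and 30.6 TPM against 84.7 and 65 TPM (1.21 ± 0.109). Among feedback genes the phosphatase DUSP5 was higher (1.01), the inhibitors SPRY1 and SPRY2 were lower (-0.89 and -0.89), and DUSP6 was not called (12.6 and 12.9 TPM against 13.5 and 10.4 TPM). EPHA4, an ephrin receptor in the same list, stood at 23.7 and 26 TPM against 9.04 and 7.86 TPM (-1.45 ± 0.0918).

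Other receptor kinases that can stand in for EGFR divided, 9 of 21 higher and 8 lower (median -0.16). Their called share was 81.0%, against 57% of all tested genes. The median was -0.25 without PC9-BrM4 replicate 1, -0.07 without replicate 2 and 0.02 over 28 members with no filter. MET stood at 146 and 159 TPM in PC9-BrM4 and 239 and 221 TPM in PC9-AMG (0.59 ± 0.0615, limma adjusted p = 0.000125). AXL stood at 151 and 161 TPM against 260.0 and 254 TPM (0.72 ± 0.0457). Both lie in windows with raised medians, 0.35 for MET on chromosome 7 and 0.49 for AXL on chromosome 19. FGFR4 was higher (5.96 and 5.25 TPM against 10.5 and 10.8 TPM, 0.82), while FGFR3 was lower (16.6 and 18.5 TPM against 3.98 and 3.77 TPM, -1.93 ± 0.0936), as was the orphan receptor ROR1 (-0.61).

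Wnt and planar polarity genes included 8 of 39 higher and 14 lower in PC9-AMG (median -0.07), a called share of 56.4%, near that of all tested genes. The antagonists moved in both directions: SFRP1 was lower, and DKK3 (2.53 and 2.46 TPM against 8.96 and 9.3 TPM, 1.53 ± 0.0878) and DKK1 (122 and 123 TPM against 238 and 216 TPM, 0.88 ± 0.0526) were higher. The ligand WNT7A was lower (-1.14), as was WNT5A (45.4 and 45.6 TPM against 36.9 and 35.8 TPM, -0.32 ± 0.0529, limma adjusted p = 0.00142). VANGL2, a core polarity protein, was higher at 8.32 and 8.61 TPM against 2.34 and 2.31 TPM in PC9-BrM4, and PRICKLE1, another, was not called at 5.96 and 5.6 TPM against 5.16 and 4.52 TPM. The number lower fell from 14 to 9 without PC9-AMG replicate 2.

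Integrins and matrix genes divided 13 higher and 12 lower of 36 (median 0.04), a called share of 69.4% against 57% of all tested genes. Without PC9-BrM4 replicate 1 there were 11 higher and 16 lower (median -0.01), and without replicate 2 there were 15 higher and 11 lower (median 0.14). PTN, the heparin-binding growth factor pleiotrophin, stood at 0.26 and 0.286 TPM in PC9-BrM4 and 8.33 and 8.89 TPM in PC9-AMG (log2 difference 2.92 ± 0.0885), with 16.7 and 17.1 TPM in PC9. ITGA5, the fibronectin receptor chain (chromosome 12, 54395261 to 54419266), stood at 11.4 and 13.2 TPM against 46.3 and 44.6 TPM (1.80 ± 0.0772). Its partner ITGB1 was lower (-0.44). ITGA5 lies in a window of chromosome 12 with a median of 0.45, and ITGB1 in a window of chromosome 10 with a median of -0.48. COL17A1, a hemidesmosomal collagen, was higher (1.67) and the matrix protein FBLN1 lower, at 245 and 256 TPM against 104 and 102 TPM (-1.27 ± 0.0492).

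Proteases and their inhibitors gave 15 of 39 higher and 10 lower (median 0.09), a called share of 64.1% against 57% of all tested genes. Of the plasminogen system, the activator PLAU was higher, at 126 and 124 TPM against 382 and 341 TPM (1.52 ± 0.0561), as was its receptor PLAUR, at 39.4 and 40.4 TPM against 83.5 and 85 TPM (1.06 ± 0.0485). The carboxypeptidase CPVL (66.3 and 59.7 TPM against 15 and 18.1 TPM, -1.87), the cathepsin CTSC (454 and 445 TPM against 178 and 178 TPM, -1.33) and the metalloproteinase inhibitor TIMP3 (-0.93) were lower. CPVL stood at 1.55 and 1.61 TPM in PC9.

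Genes linked to brain metastasis in the literature were called for 21 of 24 tested members, 10 higher and 11 lower in PC9-AMG (median -0.13). Their called share was 87.5%, against 57% of all tested genes. The median was -0.23 and -0.07 without PC9-AMG replicate 1 or 2, -0.06 without PC9-BrM4 replicate 2 and -0.03 over 29 members with no filter. Some of that work was done in PC9 derivatives, so the list offers no independent evidence of direction. ST6GALNAC5, a sialyltransferase linked to passage through the blood-brain barrier, stood at 3.96 and 4.12 TPM in PC9-BrM4 and 0.024 and 0.0626 TPM in PC9-AMG (log2 difference -2.27 ± 0.161, chosen after its values were seen). PCDH7, a protocadherin linked to contact with astrocytes, stood at 14.2 and 14.6 TPM against 4.96 and 4.85 TPM (-1.38 ± 0.0742), and PC9 at 18.4 and 17.5 TPM. PGF, a vascular growth factor, was lower (13.9 and 14.9 TPM against 3.46 and 3.5 TPM, -1.78), in the reduced window of chromosome 14. SERPINE2 was lower as well (-0.91), and HBEGF and S100A9 were higher (1.21 and 0.82). L1CAM, a neural adhesion molecule used in vascular spread, was not called at 112 and 136 TPM against 111 and 108.2 TPM, with 37.3 and 37.9 TPM in PC9 (limma adjusted p = 0.119). Without PC9-BrM4 replicate 1 its difference was -0.30 and called.

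Of 52 genes of glutamate and GABA signalling 31 lay under the filter, 14 of them listed at 0 in all 4 libraries. Of the 21 tested 3 were higher and 10 lower (median -0.20, and -0.31 without PC9-AMG replicate 1). The called share was 61.9%, against 57% of all tested genes. With no filter 6 of 38 were higher and 10 lower (median 0.01). The transporter SLC1A1 (5.17 and 5.54 TPM against 2.65 and 2.45 TPM, -0.84) and the scaffolds HOMER3 (167 and 182 TPM against 74.5 and 69.9 TPM, -1.26 ± 0.0569) and HOMER2 (-0.88) were lower, and the adhesion protein NLGN2 was higher (25.3 and 26.4 TPM against 44.6 and 47.4 TPM, 0.81). The number higher was 5 on the FPKM scale and 6 with the window median removed. Among 12 tested neuronal and neuroendocrine markers 5 were higher and 3 lower (median 0.04, and -0.02 without PC9-AMG replicate 1). MAP2, a microtubule protein of dendrites, stood at 14.9 and 16.2 TPM against 40.7 and 38 TPM (1.29 ± 0.0707) and BEX2 at 4.56 and 3.54 TPM against 14.5 and 13.8 TPM (1.59). REST, the repressor of neuronal genes, was not called, at 9.89 and 9.94 TPM against 11.7 and 9.66 TPM.

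Interferon-stimulated genes were higher for 20 of 41 tested members, lower for 5 and not called for 16 (median 0.26). The called share of 61.0% was near the 57% of all tested genes, of which 28.4% were higher and 28.6% lower. GBP1, a guanylate-binding protein, stood at 2.55 and 2.69 TPM in PC9-BrM4 and 8.7 and 9.39 TPM in PC9-AMG (log2 difference 1.47 ± 0.099), and the signal transducer STAT2 at 11.2 and 12.3 TPM against 22.7 and 21.4 TPM (0.86 ± 0.074). IRF7, which amplifies interferon production, was lower (16.5 and 17.7 TPM against 4.88 and 5.81 TPM, -1.51 ± 0.0987). Of 22 MHC class I genes 9 were higher and 4 lower (median 0.09), a called share of 59.1% that is also near that of all tested genes. HLA-E was higher (87 and 88.6 TPM against 162 and 163 TPM, 0.88) while HLA-B was lower (-0.38), and the shared light chain B2M was not called. Class I genes are similar in sequence, so their values are uncertain.

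Scavenger receptors and complement genes were higher for 12 of 24 and lower for 5 (median 0.23, and 0.11 over 31 members with no filter). Their called share was 70.8%, against 57% of all tested genes. Beside OLR1, the complement decay factor CD55 stood at 22.8 and 21.5 TPM in PC9-BrM4 and 82.2 and 71 TPM in PC9-AMG (1.74 ± 0.0767), and LY96, the partner of TLR4 in lipopolysaccharide binding, at 4.35 and 3.08 TPM against 10.6 and 10.4 TPM (1.302 ± 0.129). C5 and C3 were lower (-1.14 and -1.38). LY96 and its receptor TLR4 thus differed in opposite directions.

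Of 50 cancer-testis genes 18 passed the filter, with 11 higher and 3 lower (median 0.73). Members such as MAGEA4 passed it only through PC9-AMG, and with no filter 11 of 32 were higher and 5 lower (median 0.09). MAGEA4 (chromosome X, 151912889 to 151925170) stood at 0.135 and 0.168 TPM in PC9-BrM4 and 20.4 and 19.8 TPM in PC9-AMG (log2 difference 4.19 ± 0.144). SPANXB1 stood at 11 and 12.8 TPM against 171 and 169 TPM (3.73 ± 0.0764), and XAGE2 at 2.29 and 2.5 TPM against 28.5 and 30.8 TPM (3.18 ± 0.229). CTAG2 went the other way, at 8.54 and 7.11 TPM in PC9-BrM4 and listed at 0 in both PC9-AMG and both PC9 libraries. MAGEA3, the most abundant member, differed little (384 and 378 TPM against 321 and 338 TPM, -0.21). These genes belong to families of near-identical copies, so their values are uncertain. The HOX list had 4 of 14 tested members higher and 1, HOXB7, lower (-0.46), and its median of 0.10 turned to -0.01 under quantile normalisation. Its called share of 35.7% was below the 57% of all tested genes, of which 28.4% were higher. The 4 higher members became 2 without PC9-AMG replicate 1, PC9-AMG replicate 2 or PC9-BrM4 replicate 1.

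Of 26 tested cytosolic heat shock proteins 7 were higher and 8 lower (median -0.00), a called share of 57.7% against 57% of all tested genes. The small chaperones HSPB8 and HSPB1 were higher, HSPB8 at 7.3 and 7.31 TPM against 47.5 and 44.8 TPM (2.50 ± 0.0695) and HSPB1 at 195 and 185 TPM against 692 and 767 TPM (1.93 ± 0.0567). HSP90AA1, the inducible HSP90 (chromosome 14, 102080738 to 102139749), stood at 5841 and 5955 TPM against 1585 and 1539 TPM (-1.92 ± 0.0401), and AHSA1, the activator of its ATPase, at 1331 and 1312 TPM against 565 and 593 TPM (-1.19 ± 0.0408). PC9 held 5089 and 5104 TPM of HSP90AA1, close to PC9-BrM4. Both lie on chromosome 14 in bins whose tested genes were nearly all lower, with medians of -1.29 (102 to 104 Mb) and -1.21 (76 to 78 Mb). The constitutive HSP90AB1, on another chromosome, was lower by -0.15 ± 0.0379, and the stress-inducible HSPA1A, whose close copy HSPA1B makes its value uncertain, was not called (393 and 438 TPM against 419 and 455 TPM).

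Respiratory chain subunits and ribosomal proteins served as housekeeping lists. Called shares were 47.7% of 44 (9 higher and 12 lower, median -0.04) and 51.0% of 49 (9 higher and 16 lower, median -0.02, or 0.02 without PC9-BrM4 replicate 1), near the 57% of all tested genes. The members named here sat in regions that differed with them. NDUFA3 on distal chromosome 19 was higher (0.65), and it was not called with the window median removed (0.14). NDUFA10 on distal chromosome 2 and RPS2 on proximal chromosome 16 were lower (-0.78 and -0.68). With window medians removed the ribosomal members called higher fell from 9 to 4 and those called lower from 16 to 13. The respiratory members went from 9 to 8 higher and from 12 to 9 lower. The part of position in these differences was not tested.

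**Figure D4:**
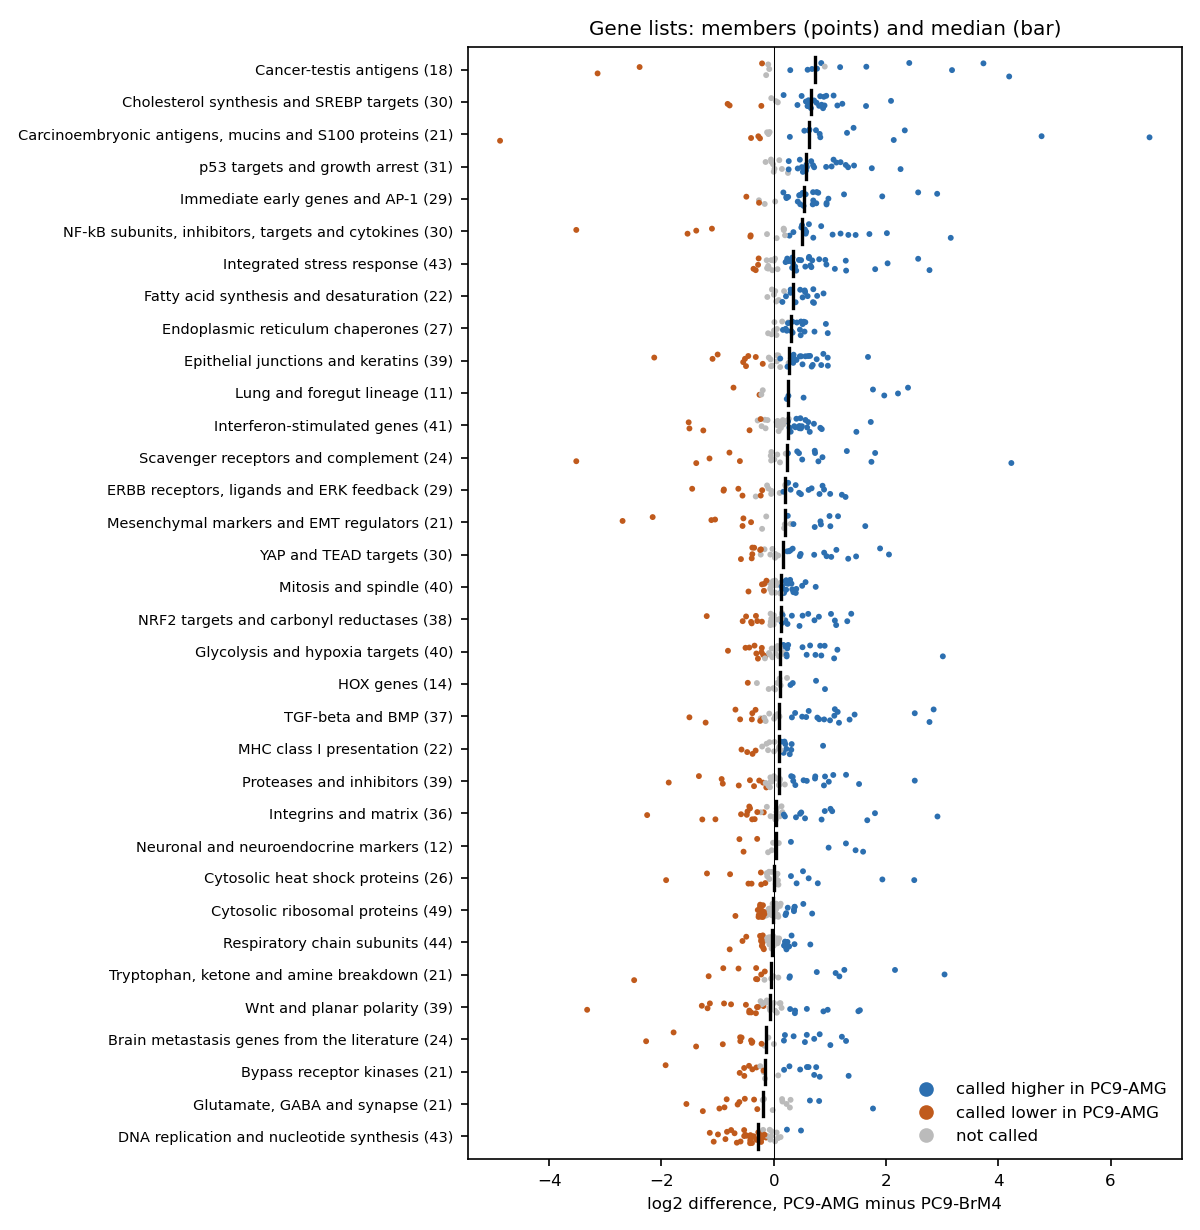
Differences between the sublines (log2, PC9-AMG minus PC9-BrM4, horizontal axis) for the members of each list with at least 10 tested genes (number in brackets), 1 point per gene and a black bar at the list's median; points are spread vertically for legibility. Blue points were called higher in PC9-AMG, orange lower and grey not called. Medians run from 0.73 for cancer-testis antigens (0.09 with no filter on low genes) and 0.67 for cholesterol synthesis to -0.27 for DNA replication.

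Neighbouring genes differed together along several chromosome arms. Of 289 windows of 10 Mb with at least 10 tested genes 9 had a median log2 difference of -0.5 or lower and 1 of 0.5 or higher, while the quartiles of the window medians were -0.15 and 0.03. The window with the lowest median was chromosome 14 from 70 to 80 Mb (-0.76, 46 of 69 genes lower and 5 higher). Bins of 2 Mb, chosen after the windows were seen, placed the reduction at 74 to 78 Mb (medians -1.12 and -1.21, the latter with all 19 genes lower) and at 102 to 104 Mb (-1.29), while the 50 tested genes from 82 to 100 Mb between them had a median of -0.08. NPC2, a cholesterol transporter of the lysosome, and SLIRP, a mitochondrial RNA-binding protein, lie in the proximal block, at 948 and 873 TPM against 453 and 493 TPM and 907 and 795 TPM against 336 and 365 TPM. EIF5, a translation initiation factor in the distal block, stood at 368 and 365 TPM against 133 and 123 TPM (-1.51 ± 0.0486), and its model contains a small nucleolar RNA gene on the same strand.

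Broader and shallower reductions covered parts of other chromosomes. Chromosome 10 from its start to 40 Mb had a median of -0.56 over 123 genes, with 92 lower and 9 higher, and chromosome 5 to 50 Mb a median of -0.46 over 105 genes, with 79 lower and 11 higher. Chromosome 16 beyond 60 Mb had a median of -0.41 over 210 genes, with 147 lower and 21 higher. CDC123, needed to assemble the initiation factor eIF2, represents the first at 210.1 and 211 TPM against 119 and 115 TPM, the chaperonin subunit CCT5 the next at 1236 and 1242 TPM against 745 and 749.9 TPM, and the proteasome subunit PSMD7 the last at 301 and 296 TPM against 161 and 166 TPM. On distal chromosome 2 (240 to 250 Mb, median -0.60) the RNA-binding protein HDLBP stood at 589.8 and 665 TPM against 367 and 357 TPM.

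Raised stretches were found on chromosome 19 from 30 to 60 Mb (median 0.43, 394 of 543 genes higher and 16 lower), chromosome 12 from 40 to 80 Mb (0.39, 185 of 263 higher), chromosome 17 beyond 50 Mb (0.32, 200 of 300 higher), chromosome 1 from 30 to 50 Mb (0.32, 130 of 210 higher), chromosome 7 from 70 to 120 Mb (0.31, 157 of 261 higher) and chromosome 3 from 180 to 200 Mb (0.28, 64 of 114 higher). KLK6, a kallikrein protease on chromosome 19, stood at 944 and 943 TPM in PC9-BrM4 and 1321 and 1455 TPM in PC9-AMG, a difference of 0.55 that was no longer called (0.04) once the window median was removed. Beside PC9 the raised stretches differed in which subline stood apart. The median log2 difference from PC9 on chromosome 19 (30 to 60 Mb) was 0.40 in PC9-AMG and -0.06 in PC9-BrM4, on chromosome 17 it was 0.40 and 0.06, on chromosome 1 it was 0.36 and 0.10, and on chromosome 3 it was 0.27 and -0.02. On chromosome 12 it was -0.02 in PC9-AMG and -0.47 in PC9-BrM4, and on chromosome 7 it was 0.06 and -0.25. For the reduced arms the values were -0.51 and 0.05 on chromosome 10 and -0.39 and 0.08 on chromosome 5. Both columns share the PC9 libraries.

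**Figure D5:**
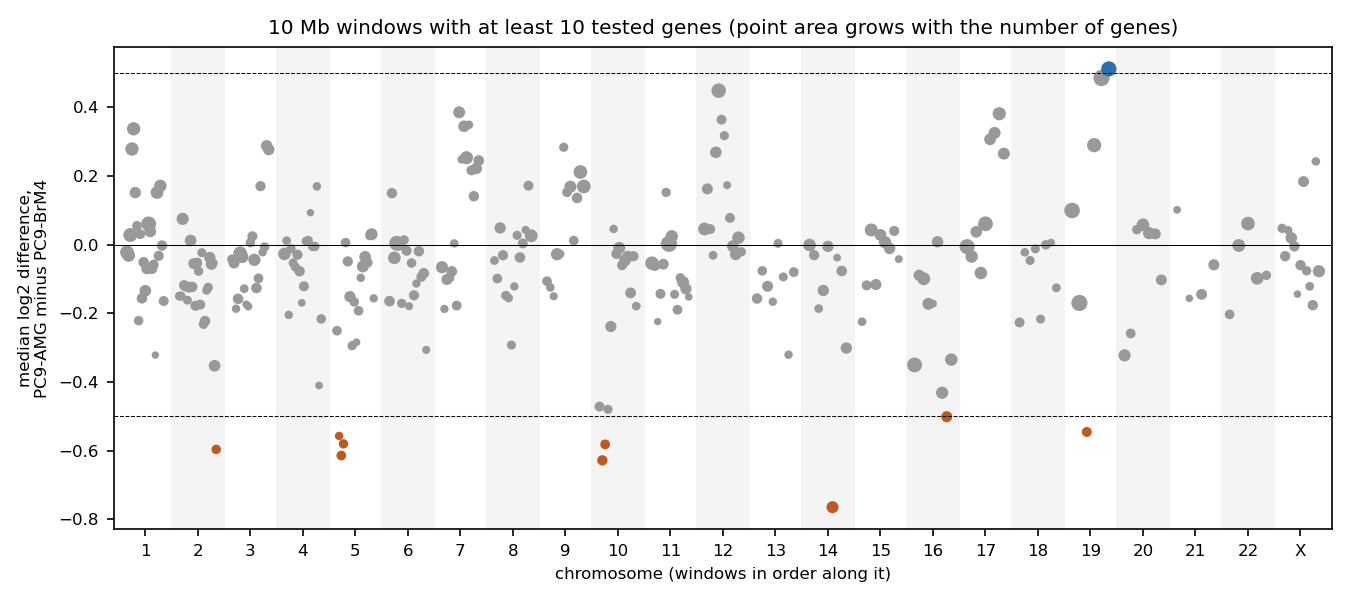
Median log2 difference (PC9-AMG minus PC9-BrM4, vertical axis) of each 10 Mb window with at least 10 tested genes, grouped by chromosome and in order along it (horizontal axis), with larger points for windows of more genes. The 9 orange windows have medians of -0.5 or lower and the blue window, on chromosome 19, of 0.5 or higher; the lowest point, -0.76, is on chromosome 14.

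Zinc finger genes of chromosome 19 went opposite ways in different parts of the chromosome. On chromosome 19 from 20 to 30 Mb 20 of 23 tested ZNF genes were lower in PC9-AMG and none higher (median -0.69), while the 10 other genes there had a median of 0.13, with 4 higher and 2 lower. The iron-sulfur subunit UQCRFS1 is among those others, at 198 and 193 TPM against 232 and 241 TPM (0.27). In the 2 Mb bins from 20 to 22 and from 22 to 24 Mb all 15 and all 9 tested genes had negative differences. The 7 genes of this window with positive differences thus lie beyond 24 Mb. Whether the split goes with position or with gene family was not tested. From 50 to 60 Mb 69 of 91 ZNF genes were higher and 3 lower (median 0.51), as were 65 of 87 other genes (median 0.55). ZNF genes on other chromosomes divided 46 higher and 67 lower of 229. Clustered ZNF genes are close paralogs, so reads may be split between them.

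Measured against PC9, the 2-fold differences did not come from 1 subline. Of the 543 genes at least 2-fold higher in PC9-AMG, the PC9 mean lay between the sublines for 406, above both for 61 and below both for 76, and it was nearer to PC9-BrM4 for 311 and nearer to PC9-AMG for 232. Of the 312 lower genes the PC9 mean lay between for 222, above both for 36 and below both for 54, nearer to PC9-BrM4 for 155 and to PC9-AMG for 157. ANXA2, a membrane-binding annexin, was the most abundant gene at least 2-fold higher in PC9-AMG. ANXA2 stood at 1930.0 and 1811 TPM in PC9-BrM4, 3732 and 3888 TPM in PC9-AMG and 2596 and 2601 TPM in PC9.

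Some of the largest differences belong to models whose reads cannot be assigned cleanly. ISY1-RAB43, a readthrough of neighbouring genes, was listed at 0 in both PC9-BrM4 libraries and at 33.9 and 41.7 TPM in PC9-AMG, while RAB43, which it contains, stood at 22.7 and 24.8 TPM against 10.2 and 3.14 TPM. UGT1A8 and UGT1A10, overlapping models of the glucuronosyltransferase locus, stood at 42.5 and 54.1 TPM and 53.1 and 39.5 TPM in PC9-BrM4 and were listed at 0 in PC9-AMG. BCL2L2-PABPN1, listed at 0 in PC9-BrM4 against 16 and 7.83 TPM, MINOS1-NBL1, and the pseudogene NUDT4P1 (4.25 and 27.8 TPM against 2.55 and 2.64 TPM) are of the same kind, and these values are uncertain. The pairs MINOS1-NBL1, NUDT4P1 and RAB43 lost their calls when a library was left out. WIPI1, an autophagy protein whose model contains a microRNA gene, stood at 5.63 and 4.9 TPM against 23.1 and 18.7 TPM (1.80), and ADIRF, a gene of fat cells that overlaps AGAP11, at 176 and 170.2 TPM against 60.5 and 61.7 TPM (-1.49).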

How the data were processed

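RNA from conventional cultures of PC9, PC9-BrM4 and PC9-AMG (2 libraries each) was taken up in TRIzol, made into TruSeq Stranded mRNA libraries and sequenced on a NextSeq, per the labels' protocols. Per the submitters' processing notes the build was hg38 and the tools were HISAT2 2.1.0, StringTie 1.3.4d and bcl2fastq, with no role given. No annotation release or strand setting is stated. The authors deposited 1 gene table per library with TPM, FPKM and coverage columns, as named in the file headers, and no read counts, so counting error cannot be given. FPKM (fragments scaled to gene length and library size) served as an alternative, and the authors' coverage (mean reads per base) gave the aligned gigabases. A series-wide table has 6 per-sample columns whose names could not all be matched to the labels, and these were not used.

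TPM rows of 1 gene identifier were summed, genes at 1 TPM or more in at least 2 of the 4 subline libraries were kept, and log2(TPM + 1) was fitted over all 6 libraries with limma 3.58.1 (R 4.3.3, mean-variance trend, Benjamini-Hochberg adjustment), tested on simulated data. The spread is pooled over the 3 lines with 3 residual degrees of freedom, which with 2 libraries a line limits the precision. The labels do not say that replicate numbers pair the samples, and no pairing was used. Deviations of same-numbered libraries correlated at -0.06 between the sublines, which with 2 libraries a line cannot exclude a pairing. Genes named in full are the 12 most changed in each direction at 10 TPM or more whose models overlap no other on their strand, the 6 most changed in each direction whose models do, up to 3 per direction of each list at 5 TPM or more, preset genes, abundant 2-fold genes and 3 abundant genes of each extreme 10 Mb window; other genes, among them KRT5, BIRC3, CHAC1 and list members that were not called, were chosen after their values were seen. The members and the 38 gene lists were chosen with earlier results of these data known, and several genes stand in more than 1 list. Bulk RNA cannot tell a change in the cells of a kind from a change in RNA per cell. Some genes that the rule names are not reported here. Promoters are from RefSeq (GRCh38.p14). Alternatives changed the pseudocount (0.1 or 0.5), filter, scaling, unit, libraries, block, variance trend and regional centring.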

Additional observations from a re-analysis of the deposited data

How the results depend on the processing

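Over the 18 other settings the number of called genes ranged from 6543 to 8273 around 7951. The 2-fold counts depended on the scale: 829 higher and 485 lower with a pseudocount of 0.1, 359 higher with a filter at 5 TPM, and 338 higher and 205 lower on FPKM. Windows of 10 Mb with a median of 0.5 or higher numbered 2 with pseudocounts of 0.1 and 0.5, 0 with no filter, with quantile normalisation and on FPKM, and 0 to 2 with a library left out (0 without PC9-AMG replicate 1 or PC9-BrM4 replicate 1, 2 without PC9-BrM4 replicate 2). Windows at -0.5 or lower numbered 2 with no filter and 5 on FPKM. With the replicate number as a block 7608 genes were called, 3818 higher and 3790 lower. The labels do not say that these numbers pair the samples. Of 230 tested named genes 225 were called and 38 lost the call under at least 1 setting. Subtracting the window median turned 11 named genes to ALDH6A1 0.14, TUBB3 0.040, POLD1 -0.28, FOS 0.28, TARS 0.16, COMMD3 0.18, RPL37 0.39, ZNF622 0.37, RPSAP58 0.29, CALB2 0.37 and KLK5 -0.24, by construction of that setting. No read counts were used, so the depth behind a low TPM is unknown and no detection limit can be given.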

Other observations

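The 2 libraries of a subline differed from each other in a gene-group-specific way. PC9-AMG replicate 1 exceeded replicate 2 for 60.9% of all tested genes, but for 40 of 43 integrated stress response genes, 26 of 27 endoplasmic reticulum chaperones, 25 of 29 immediate early genes and 25 of 30 cholesterol synthesis genes. It did so for 5 of 49 ribosomal protein genes and 6 of 44 respiratory chain genes. In PC9-BrM4 replicate 1 exceeded replicate 2 for 36.3% of all tested genes, for 44 of the 49 ribosomal protein genes and for 36 of the 44 respiratory chain genes. Without PC9-AMG replicate 1 the immediate early list had 20 members higher and 2 lower (median 0.52), p53 targets 21 higher and 0 lower (median 0.52), and cholesterol synthesis 23 higher and 3 lower (median 0.66). The labels give no batch, day or culture for any library, and the source of these differences between replicates was not tested.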
